A study of Mus musculus with 37 samples.

Results

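Doc2a, a gene inside the rearranged interval, was examined together with 7 other genes of neurotransmitter release. These were its paralog Doc2b, the related Rab3 effector Rph3a, the synaptotagmins Syt1, Syt2 and Syt7, and the priming factors Unc13a and Unc13c. Each of the 8 genes was represented by the probe set that lists its symbol alone. Where a gene had several such probe sets, which was so for Unc13a (3) and Unc13c (7), the brightest by its mean over all arrays was used, so probe sets were chosen by mean level alone. The genes themselves were chosen from the interval and from the partners of Doc2a with results of these data known, so the levels and slopes below describe genes picked with that knowledge. The 8 genes stand among 19938 genes measured by a probe set with 1 gene symbol.

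The arrays profiled the brain of 8 male mice in 4 pieces: brain stem, cerebellum, cortex and olfactory bulb. The 2 df/+ mice carry 1 copy of the mouse chromosome 7 interval that matches human 16p11.2 because of a heterozygous deletion. The 3 dp/+ mice carry 3 copies because of a heterozygous duplication, and the 3 +/+ mice have the usual 2 copies. All were F1 C57BL/6N:129Sv hybrids, and the labels give no age. The question put by the design is whether expression follows the number of copies.

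Fusion of a synaptic vesicle with the plasma membrane is carried out by SNARE proteins and is timed by calcium-binding proteins with C2 domains. Synaptotagmins 1 and 2 trigger fast release that is locked to the action potential, whereas synaptotagmin 7 and the Doc2 proteins bind calcium at lower concentrations and serve slower, asynchronous or spontaneous release. The Unc13 proteins make docked vesicles ready to fuse. Forebrain neurons are known to rely mainly on Syt1, while many fast synapses of the hindbrain use Syt2.

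The data held 37 arrays of 31 region samples, 6 of them hybridised 2 times and averaged here. There was no cortex sample of dp/+ mouse 3. Values are log2 RMA values, on which a difference of 1 is a 2-fold difference. They are set side by side only within a gene, except where genes of other organs serve as a rough scale of background. Over all genes the median SD was 0.095 between repeated arrays and 0.13 between mice of a genotype. The number of mice limits the precision throughout. Of the markers listed for each region, 6 of 6 measured bulb genes, 4 of 5 cortex genes, 6 of 6 cerebellum genes and 5 of 5 brain stem genes were highest in their own region. The brain stem samples of +/+ mice 1 and 2 stood apart: both exceeded every other brain stem for 3 of the 5 measured cortex markers (Tbr1, Neurod6 and Fezf2, but not Cux2 or Rasgrf2) and for 4 of the 4 choroid plexus markers. The cortex marker list averaged 7.46 to 7.54 in df/+ and 7.54 to 8.09 in dp/+ brain stems, against 8.55, 9.01 and 7.75 in +/+ brain stems. Tbr1, a transcription factor of cortical neurons, was at 5.79 and 5.83 in df/+ brain stems and at 7.13, 6.19 and 6.15 in dp/+ brain stems, against 8.49, 9.08 and 6.45 in +/+ brain stems. Ttr, made by the choroid plexus, was at 9.50 and 9.67 in df/+, 9.13, 8.95 and 10.28 in dp/+ and 12.39, 12.98 and 8.95 in +/+ brain stems. The main dosage results of Doc2a and some contrasts of regions are given with and without these samples. Other values that include the brain stem are given with these samples only. Leaving them out leaves 1 +/+ brain stem, that of mouse 3. Such a brain stem value thus rests on a lone sample assumed to vary like the others. Markers were uneven in other samples too. The cerebellum markers averaged 9.43 in the highest dp/+ brain stem, against at most 8.02 in df/+ and 8.11 in +/+ brain stems. The choroid plexus markers averaged 8.69 in the lowest df/+ and 9.73 in the lowest dp/+ cerebellum, against at least 10.99 in +/+ cerebella. The highest df/+ and dp/+ cerebella lay within the +/+ range. No alternative below left out these samples alone.

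Doc2a followed the number of copies. Averaged over the regions of each mouse as the difference from the +/+ mean, it was at -0.53 and -0.57 in the df/+ mice and at 0.35, 0.43 and 0.27 in the dp/+ mice, against -0.13, -0.0031 and 0.13 in the +/+ mice. Both df/+ mice lay below and all 3 dp/+ mice above every +/+ mouse, as was so for 13.8% and 17% of all genes. The slope on log2 copies, for which 1 means expression in proportion to copies and 0 no relation, was 0.57 ± 0.049 (SE, n = 8 mice, 95% interval 0.46 to 0.68; limma, Benjamini-Hochberg adjusted p = 8.73e-05). It was positive and past an adjusted p of 0.05 in 1 of the 8 members, Doc2a, and in 0.11% of all genes. Leaving out the +/+ brain stems that stood apart gave 0.57 (adjusted p = 3.16e-05). By slope Doc2a was 16th of the 30 measured genes from Slx1b to Septin1, of which 21 passed.

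Each rearrangement was also set against wild type. Doc2a fell by 0.55 ± 0.077 (SE) in df/+ mice, to 68.3% of the +/+ level (limma, Benjamini-Hochberg adjusted p = 0.0146). In dp/+ mice it was 0.35 ± 0.069 higher, 128% of the +/+ level (adjusted p = 0.0324). The df/+ call was lost, at adjusted p from 0.088 to 0.233, on leaving out either df/+ mouse or +/+ mouse 2. The dp/+ call was lost, at adjusted p from 0.0531 to 0.127, on leaving out dp/+ mouse 1, dp/+ mouse 2, +/+ mouse 1 or +/+ mouse 2. Doc2a was the 1 member called in each contrast, beside 0.115% of all genes called lower in df/+ and 1.48% called higher in dp/+ mice. Without the brain stems that stood apart, the df/+ difference was -0.60 (adjusted p = 0.00274) and the dp/+ difference 0.29 (adjusted p = 0.0274). Per log2 copy, the step from 1 to 2 copies minus the step from 2 to 3 was -0.052 (95% interval -0.42 to 0.31, adjusted p = 0.883), so this design left room for a difference of either sign between the steps.

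The dosage slopes of Doc2a differed between regions by an F test, a call that did not hold in every alternative, as given below. In the olfactory bulb it was at 8.18 and 8.10 in df/+ mice and at 9.32, 9.37 and 8.94 in dp/+ mice, against 8.63, 8.98 and 8.95 in +/+ mice. In the cortex the values were 9.16 and 9.03 in df/+ and 10.10 and 10.10 in dp/+ mice, against 9.79, 9.68 and 9.81 in +/+ mice. In the brain stem they were 8.81 and 8.73 in df/+ and 9.96, 10.11 and 9.98 in dp/+ mice, against 9.34, 9.51 and 9.78 in +/+ mice. In these 3 regions both df/+ samples lay below every +/+ sample, as they did for 9.32% of all genes in brain stem, 14.3% in cortex and 14.6% in bulb. The dp/+ samples lay above every +/+ sample in cortex and brain stem, as for 25.9% and 2.83% of all genes, and 1 of the 3 overlapped the +/+ range in the bulb. In the cerebellum the groups were close together, at 7.0 and 7.10 in df/+ and 7.29, 7.40 and 7.40 in dp/+ mice, against 6.98, 7.07 and 7.24 in +/+ mice. There the df/+ samples lay inside the +/+ range and the dp/+ samples just above it, as for 16.1% of all genes.

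**Figure D1:**
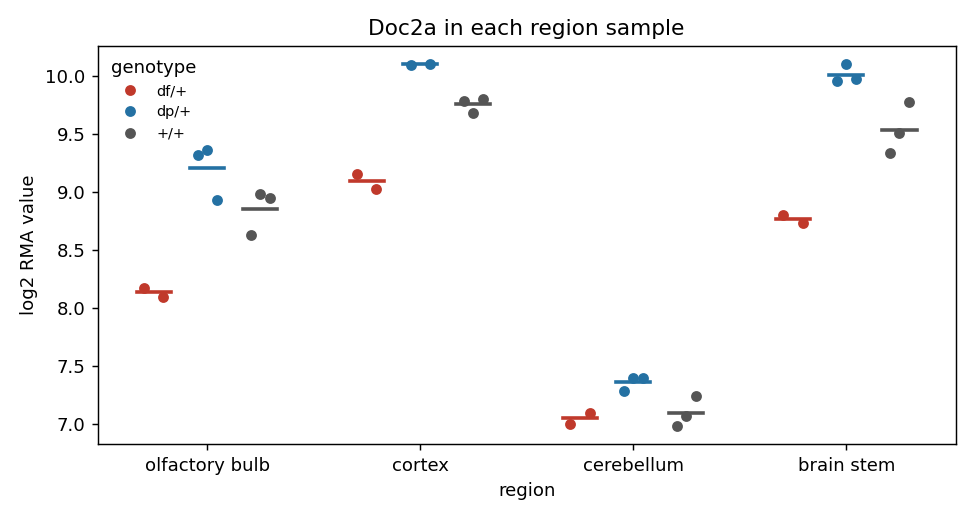
Log2 RMA value of Doc2a (vertical axis) in each region sample (points), by region and, within a region, df/+, dp/+ and +/+ from left to right; bars are group means. The df/+ points lie below the +/+ points in bulb, cortex and brain stem, at 8.10 to 9.16, and among them in the cerebellum, at 7.0 and 7.10.

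The slope of Doc2a was 0.78 ± 0.076 (SE) in the brain stem (adjusted p = 8.19e-08), 0.68 ± 0.076 in the bulb (adjusted p = 9.63e-07) and 0.63 ± 0.082 in the cortex (adjusted p = 2.17e-05; limma with mouse as random block, Benjamini-Hochberg). In the cerebellum it was 0.19 ± 0.076, with an unadjusted p of 0.0169 and an adjusted p of 0.999. Positive slopes were called in 0.12% of all genes for brain stem, 0.135% for bulb, 0.0953% for cortex and 0.11% for cerebellum. An F test that the 4 slopes are equal gave an adjusted p of 0.0205 for Doc2a, which was the 1 member past the threshold beside 0.0502% of all genes. That call was lost with cyclic loess, array weights, slopes on the copies themselves or no mouse block, and without some single mice. The cerebellar slope minus the brain stem slope was -0.59 ± 0.099 (adjusted p = 0.0136), beside 0.01% of all genes called lower. Over all 20 alternatives this difference ran from -0.63 to -0.45, the latter as a slope per copy and not per log2 copy. The call held in 12 of the 20. It was lost without either df/+ mouse (adjusted p = 0.556 and 0.631), dp/+ mouse 1 (0.138), dp/+ mouse 2 (0.107) or +/+ mouse 2 (0.0567), and with array weights (0.63), slopes on the copies themselves (0.134) or no mouse block (0.0658). The bulb slope exceeded the cerebellar slope by 0.48 (adjusted p = 0.0693) and the cortical slope exceeded it by 0.44 (unadjusted p = 0.000188, adjusted p = 1.00), and neither passed over all genes. The bulb and cerebellum pair passed in 4 of 20 alternatives, with brighter genes only (adjusted p = 0.0422), quantile normalization within regions (0.0198), without dp/+ mouse 3 (0.00724) and without +/+ mouse 1 (0.0355), and the cortex and cerebellum pair in 0 of 20. Without the brain stems that stood apart, the F test gave an adjusted p of 0.0221 and the brain stem slope was 0.79. The F test lost its call without df/+ mouse 1 (adjusted p = 0.346), df/+ mouse 2 (1.00), the dp/+ mice numbered 1 (0.157) and 2 (0.161) or +/+ mouse 2 (0.0558).

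The regional contrasts behind these slopes were uneven in strength. Doc2a in df/+ mice fell by 0.72 in the bulb (adjusted p = 0.00207), by 0.66 in the cortex (adjusted p = 0.0116) and by 0.77 in the brain stem (adjusted p = 0.00138), where the difference without the samples that stood apart was -0.99 (adjusted p = 0.00521, against 1 +/+ sample). Genes called lower made up 0.256%, 0.0752% and 0.211% of all genes in these regions. In the cerebellum the df/+ difference was -0.048 (95% interval -0.30 to 0.20, adjusted p = 0.94). The dp/+ differences of Doc2a were 0.35 for bulb, 0.33 for cortex, 0.26 for cerebellum and 0.47 for brain stem, the last being 0.26 against the 1 +/+ sample that did not stand apart. None of these 4 passed, with adjusted p from 0.0763 to 0.261, beside 2.27%, 0%, 5.54% and 0.015% of all genes called in bulb, cortex, cerebellum and brain stem. The df/+ and dp/+ contrasts share their +/+ samples. Of the other 7 members, none passed in 28 regional df/+ contrasts (-0.18 to 0.37) or in 28 dp/+ contrasts (-0.36 to 0.19), beside 0.291%, 0.1%, 0.0702% and 0.211% of all genes called in df/+ bulb, cortex, cerebellum and brain stem. Between repeated arrays Doc2a differed by 0.050 to 0.45, the largest difference being that of the cerebellum of +/+ mouse 3 (7.02 and 7.47), and its SD was 0.15 between repeats and 0.14 between mice. The 12 measured genes of other organs, listed as a scale of background, had 4.33 to 6.66 in +/+ cerebella, where Doc2a had 7.10. The part of low signal in the cerebellar slope was not tested.

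None of the other 7 members passed the threshold for dosage across the brain. Doc2b, the closest relative of Doc2a, averaged 0.11 in df/+ mice and -0.018 in dp/+ mice relative to +/+ mice, with a slope of -0.079 ± 0.062 (limma, adjusted p = 0.76). Syt1 had a slope of -0.0046 ± 0.036, Syt2 of -0.015 ± 0.051 and Syt7 of -0.067 ± 0.049. Unc13a had -0.079 ± 0.043 and Unc13c 0.097 ± 0.051. For Rph3a the slope was -0.14 ± 0.049, with an unadjusted p below 0.05 and an adjusted p of 0.697. Across these 7 genes the 95% intervals ran from -0.25 to 0.21, so slopes as steep as that of Doc2a lay outside them. Over all 8 members the median slope was -0.041, and over all genes it was 0.015.

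**Figure D2:**
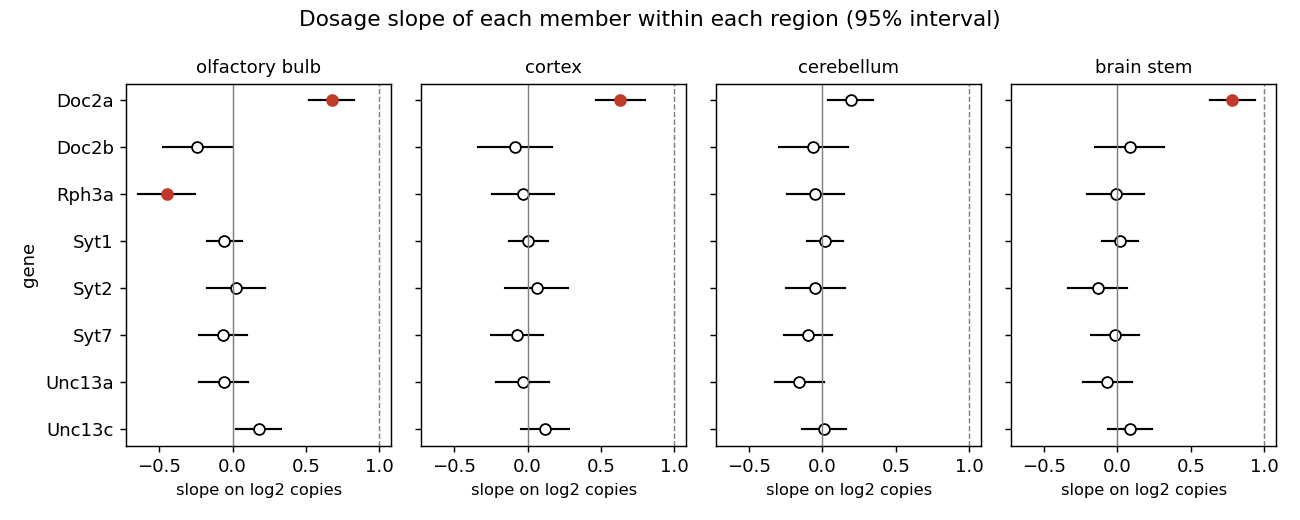
Slope of log2 expression on log2 copies (horizontal axis) for each member (rows) in each region (panels), with the 95% interval as a line; filled points passed an adjusted p of 0.05, the grey line marks 0 and the dashed line marks 1. Filled points are Doc2a in bulb (0.68), cortex (0.63) and brain stem (0.78), and Rph3a in the bulb (-0.45).

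Within regions, 1 of the 28 slopes of these 7 genes passed, and 3 had an unadjusted p below 0.05, a level reached by 2.32% of all genes in brain stem, 4.09% in cerebellum, 5.45% in cortex and 6.04% in bulb. The 1 that passed belonged to Rph3a, which encodes rabphilin, a C2-domain protein that binds Rab3 on synaptic vesicles. In the bulb Rph3a was at 9.29 and 9.76 in df/+ mice and at 9.08, 8.66 and 8.69 in dp/+ mice, against 8.76, 9.48 and 9.27 in +/+ mice. The group means fell with copies, but the +/+ samples overlapped both other groups. The slope was -0.45 ± 0.095 (95% interval -0.64 to -0.25; limma, Benjamini-Hochberg adjusted p = 0.0223), and negative slopes were called in 0.11% of all genes. It was -0.33 without df/+ mouse 2 (adjusted p = 0.906), -0.40 without dp/+ mouse 2 (0.296), also -0.40 without mouse 3 of that genotype (0.20), and -0.45 without +/+ mouse 3 (0.0546), and passed in none of these. With the bulb fitted alone it was -0.45 with an adjusted p of 0.905. The bulb sample of +/+ mouse 1 was the lowest of the 3 +/+ bulbs for 6 of the 8 members, Rph3a among them.

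Rph3a did not pass in cortex (slope -0.031), cerebellum (-0.050) or brain stem (-0.011). Its 4 slopes were not shown to differ after adjustment (F test, unadjusted p = 0.00352, adjusted p = 1.00). In +/+ mice the bulb minus cortex difference of Rph3a was -2.22, so markers of cortex were read in the same samples. The mean of the 5 measured cortex markers was 8.52 to 8.56 in df/+ and 8.24 to 8.39 in dp/+ bulbs, against 8.29 to 8.54 in +/+ bulbs, and 0 of 5 passed the slope test. The 4 markers of excitatory neurons averaged 11.60 to 11.62 in df/+ and 11.37 to 11.44 in dp/+ bulbs, against 11.16 to 11.53 in +/+ bulbs, with 0 of 4 past the threshold. The 6 general neuron markers averaged 11.58 to 11.60 in df/+ and 11.39 to 11.46 in dp/+ bulbs, against 11.47 to 11.61 in +/+ bulbs. In this mean every dp/+ bulb lay below every +/+ bulb, as was so for 8.82% of all genes taken singly. None of the 6 passed the slope test, and 2 were called lower in dp/+ bulbs, beside 1.06% of all genes. The 4 oligodendrocyte markers averaged 10.18 to 10.23 in df/+ and 9.82 to 10.09 in dp/+ bulbs, against 10.20 to 10.54 in +/+ bulbs, and 1 was called lower in dp/+ bulbs. The 5 markers of olfactory sensory neurons averaged 9.06 to 9.40 in df/+ and 9.19 to 9.38 in dp/+ bulbs, against 9.57 to 9.90 in +/+ bulbs. Every bulb of either rearrangement thus lay below every +/+ bulb in this mean. Taken singly, 14.6% of all genes did so in df/+ and 8.82% in dp/+ bulbs. Of the 5 sensory neuron markers, 1 was called lower in df/+ and 1 in dp/+ bulbs, beside 0.256% and 1.06% of all genes. The part of all these markers in the Rph3a slope was not tested. In whole tissue, fewer cells of a type and less RNA per cell cannot be told apart.

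**Figure D3:**
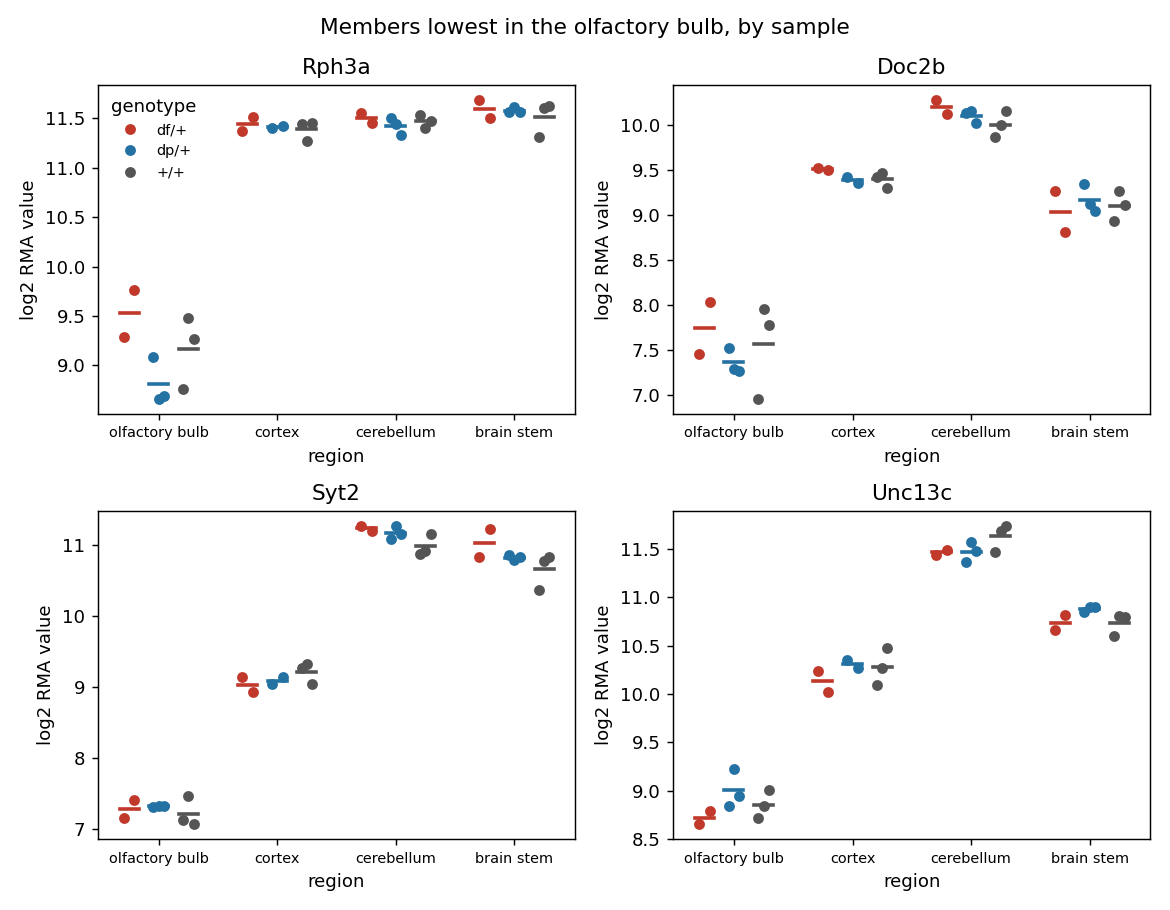
Log2 RMA value (vertical axes) of Rph3a, Doc2b, Syt2 and Unc13c in each region sample (points; bars are group means), with df/+, dp/+ and +/+ from left to right within a region. All 4 are lowest in the bulb in every genotype, and the bulb values of Rph3a spread from 8.66 to 9.76.

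The wider release machinery was counted from 6 lists. They held 70 measured genes. None of the 14 other synaptotagmins, 7 rabphilin and synaptotagmin-like relatives, 20 priming and active-zone genes, 12 SNAREs and regulators, 7 presynaptic calcium channel genes or 10 vesicle proteins passed the slope test across the brain in either direction. An unadjusted p below 0.05 was reached by 5 of the 70, beside 6.87% of all genes. None passed in df/+ or in dp/+ mice across the brain either, though the unadjusted p was below 0.05 for 3 and 7 of the 70, beside 6.75% and 23.7% of all genes. Called by adjusted p were 0.115% of all genes in df/+ and 1.86% in dp/+ mice. Within regions 1 of the 70 passed a slope test and 1 a df/+ contrast, and none passed a dp/+ contrast. The dp/+ contrasts called 2.27% of all genes in bulb, 0% in cortex, 5.54% in cerebellum and 0.015% in brain stem. Synpr, a synaptic vesicle protein, averaged 8.48 ± 0.26 in df/+ and 9.10 ± 0.086 in dp/+ cerebella, against 8.96 ± 0.058 in +/+ cerebella (SD), a slope of 0.40 (limma, Benjamini-Hochberg adjusted p = 0.0213), beside 0.11% of all genes called positive there. Cacna2d1, an auxiliary calcium channel subunit, averaged 11.98 ± 0.12 in df/+ bulbs against 11.41 ± 0.17 in +/+ bulbs, 0.56 higher (adjusted p = 0.0379), beside 0.0351% of all genes called higher there. Synpr and Cacna2d1 were not refitted with single mice left out.

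Most members differed between regions. In +/+ mice 7 of the 8 passed an F test over the 4 regions (limma with mouse as a fixed block, Benjamini-Hochberg), all but Syt7, as did 58% of all genes. Between pairs of regions, 6 members differed for bulb and cortex (35.7% of all genes), 6 for bulb and cerebellum (37.6%) and 7 for bulb and brain stem (32.6%). For cortex and cerebellum 6 differed (37.2%), for cortex and brain stem 4 (27.3%) and for cerebellum and brain stem 4 (36.8%). By their means over all +/+ samples, with the brain stems that stood apart, the top region was the cortex for 4 members, the cerebellum for 3 and the brain stem for 1. The order of the 4 regions was the same in df/+, dp/+ and +/+ mice for 7 of the 8. The other one, Syt1, had its means in bulb and cortex 0.018 apart in +/+ mice (adjusted p = 0.893), and they changed places in both rearranged genotypes.

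**Figure D4:**
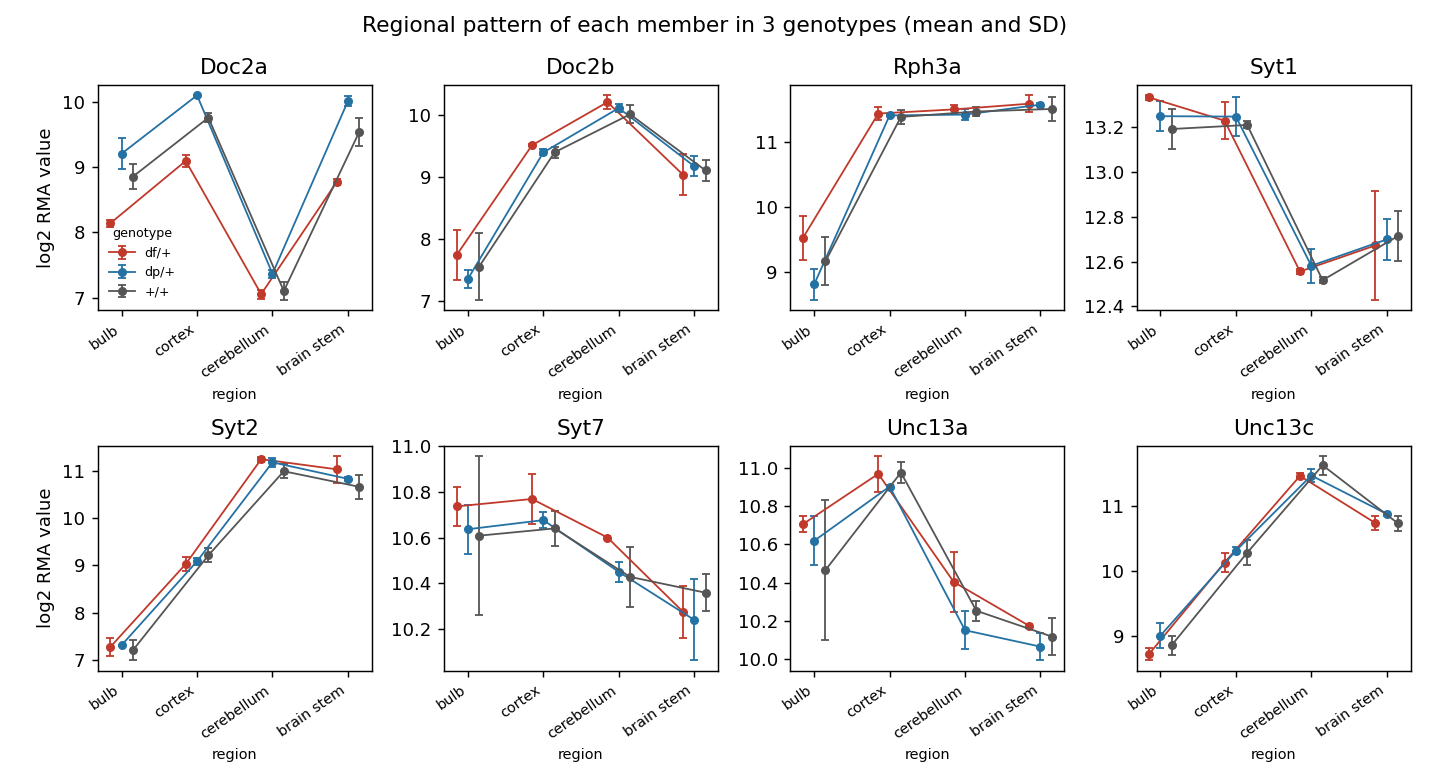
Mean log2 RMA value (vertical axes, with SD) of each member by region in df/+ (red), dp/+ (blue) and +/+ (grey) mice; n is 2, 3 and 3 mice, with 2 dp/+ mice in the cortex. The order of regions is the same in the 3 genotypes for 7 of the 8 members, and the Doc2a means lie in the order df/+, +/+, dp/+ in every region.

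Doc2a was highest in the cortex of +/+ mice, at 9.76 ± 0.069 (SD, n = 3), followed by brain stem (9.54 ± 0.22), bulb (8.85 ± 0.19) and cerebellum (7.10 ± 0.13). Cortex exceeded cerebellum by 2.66, a 6.31-fold difference (adjusted p = 2.58e-12). Each pair of regions passed except the neighbours cortex and brain stem, which differed by 0.22 (adjusted p = 0.108). The +/+ brain stem that did not stand apart, that of mouse 3, had 9.78, beside 9.81 in the cortex of the same mouse. The gap between these 2 regions in +/+ mice thus rests largely on the brain stems that stood apart. The cortex mean was also the higher of the 2 in df/+ mice (9.10 against 8.77) and in dp/+ mice (10.10 against 10.01). The highest dp/+ brain stem had 10.11. In df/+ mice the cortex exceeded the cerebellum 4.12-fold and in dp/+ mice 6.67-fold. Over the 12 +/+ samples the genes whose profile was most like that of Doc2a were Shc3, Foxp2, Vgf, Pak3 and Ptpn5, with Pearson r from 0.985 to 0.994, given as a description over samples that share mice and regions. Over all 31 samples, after the +/+ mean of the region was subtracted, the 5 closest were Maz, Pagr1a, Taok2, Sez6l2 and Ypel3 (r from 0.859 to 0.911), and all 5 lie in the rearranged interval. In the RefSeq annotation of GRCm38.p6 Doc2a, on chromosome 7, overlaps Ino80e. Signal of the overlapping stretch was not separated here.

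Doc2b had a profile unlike that of Doc2a (r = -0.32 over the 12 +/+ samples). Its mean was highest in the cerebellum, where the 3 +/+ samples had 9.86 to 10.15 (SD 0.15), and lowest in the bulb (7.56 ± 0.53), a 5.45-fold difference (adjusted p = 9.85e-10). Cortex (9.39 ± 0.087) and brain stem (9.10 ± 0.17) stood between and did not differ past the threshold (adjusted p = 0.163). The cerebellum was thus the lowest of the 4 regions for Doc2a and the highest for Doc2b. Rph3a was close to even in cortex (11.39 ± 0.10), cerebellum (11.47 ± 0.065) and brain stem (11.51 ± 0.18), with no pair of these past the threshold. In the bulb it was at 9.17 ± 0.37, 5.08-fold below the brain stem (adjusted p = 1.23e-09).

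Among the synaptotagmins, Syt1 and Syt2 ran in opposite directions (r = -0.85). Syt1, the fast sensor of the forebrain, had means of 13.21 ± 0.016 for cortex and 13.19 ± 0.091 for bulb, above 12.71 ± 0.11 for brain stem and 12.52 ± 0.012 for cerebellum. Cortex exceeded cerebellum 1.62-fold (adjusted p = 7.19e-06). Syt2, its hindbrain counterpart, had 10.99 ± 0.15 for cerebellum, 10.66 ± 0.26 for brain stem, 9.21 ± 0.15 for cortex and 7.21 ± 0.21 for bulb. The 12 measured genes of other organs had 4.43 to 6.76 in +/+ bulbs, where Syt2 had 7.21 and Doc2b 7.56. The 13.7-fold difference of Syt2 between cerebellum and bulb (adjusted p = 7.81e-13) was the widest of the 8 members. Cerebellum and brain stem differed by 0.33 (adjusted p = 0.049), and by 0.099 (adjusted p = 0.778) with the 1 +/+ brain stem that did not stand apart. Syt7, the slow sensor, varied least, from 10.64 ± 0.076 in the cortex to 10.36 ± 0.082 in the brain stem (1.21-fold, F test adjusted p = 0.102). Without +/+ mouse 1 the F test of Syt7 passed (adjusted p = 0.0166), and over all 8 mice it did as well (adjusted p = 6.48e-06).

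The 2 priming factors had different profiles. Unc13a was highest in the cortex at 10.98 ± 0.054 and lowest in the brain stem at 10.12 ± 0.096, a 1.81-fold difference (adjusted p = 7.62e-05). Its bulb exceeded the brain stem by 0.35 (adjusted p = 0.0407), and by 0.44 (adjusted p = 0.154) with the 1 +/+ brain stem that did not stand apart, a larger difference on fewer samples. All 3 of its probe sets were highest in the cortex, but with the next brightest one bulb minus brain stem was -0.11 (adjusted p = 0.581). Unc13c, the Unc13 form known for its expression in the cerebellum, had 11.63 ± 0.14 for cerebellum, 10.73 ± 0.12 for brain stem, 10.28 ± 0.19 for cortex and 8.85 ± 0.15 for bulb. Cerebellum exceeded bulb 6.85-fold (adjusted p = 1.63e-13). All 7 of its probe sets were highest in the cerebellum and lowest in the bulb, by 2.78 to 3.64, and cortex and brain stem differed by 0.45 (adjusted p = 0.000487), or by 0.36 (adjusted p = 0.0586) with that 1 brain stem.

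Syt2 and Unc13c moved together most closely of the 28 pairs of members over the +/+ samples (r = 0.96), ahead of Doc2b and Unc13c (0.93) and of Doc2b and Rph3a (0.92). Their promoter windows are shown for that reason, as 300 bases around the gene start in RefSeq's annotation of GRCm38.p6. The window of Syt2 is chr1:134646362-134646661 on the + strand and the first of 2 listed, and that of Unc13c is chr9:73968988-73969287 on the - strand. Capitals mark matches, on either strand, to 6 motifs: the TATA box (letters TATAAA), the CCAAT box, the GC box (letters GGGCGG), the cAMP response element TGACGTCA, and E-boxes of the letters CACGTG and of the letters CAGCTG. No match overlapped another in these windows.
Syt2: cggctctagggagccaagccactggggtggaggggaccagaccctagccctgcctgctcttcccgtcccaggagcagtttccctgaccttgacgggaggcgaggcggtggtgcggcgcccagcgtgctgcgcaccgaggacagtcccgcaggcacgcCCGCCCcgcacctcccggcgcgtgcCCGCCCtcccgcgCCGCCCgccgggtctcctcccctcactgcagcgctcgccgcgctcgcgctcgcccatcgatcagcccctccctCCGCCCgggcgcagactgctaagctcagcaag
Unc13c: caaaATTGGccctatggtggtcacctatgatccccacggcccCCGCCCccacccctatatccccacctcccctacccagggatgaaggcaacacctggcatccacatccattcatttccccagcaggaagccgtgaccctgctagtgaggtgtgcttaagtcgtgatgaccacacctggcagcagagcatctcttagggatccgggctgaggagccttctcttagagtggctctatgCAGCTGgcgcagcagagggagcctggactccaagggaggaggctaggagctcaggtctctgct
The Syt2 window held 4 GC boxes, and the Unc13c window held 1 GC box, 1 CCAAT box and 1 CAGCTG E-box. Of 32851 mouse windows of the same length 35.7% held a GC box, 37.4% a CCAAT box and 16.3% a CAGCTG E-box. The TATA box (13.6% of windows), the cAMP response element (1.79%) and the CACGTG E-box (7.15%) were in neither. GC content was 74.3% for Syt2 and 59.3% for Unc13c, with 34 and 6 CpG pairs, against medians of 52.7% and 7 over all windows. The other Syt2 window held 2 GC boxes and 1 CCAAT box, so the GC box was in all 3 windows and the CCAAT box in the Unc13c window and 1 of the 2 Syt2 windows.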

How the data were processed

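Affymetrix arrays measured total RNA of 31 brain region samples from 8 mice. The deposited values are log2 values that the authors made by RMA in Affymetrix Expression Console, per the submitters' processing notes; the log base was read from their range (3.29 to 14.5). The genome build of the probe design is not given in the sources used here. Of 35556 probe sets, 21789 list 1 gene symbol, 1621 several and 12146 none; the brightest with 1 symbol stood for each of 19938 genes. Repeated arrays were averaged. Tests were made with limma 3.58.1 in R 4.3.3 (lmFit, eBayes), with Benjamini-Hochberg adjustment over all genes and a threshold of 0.05: on mouse means across regions, on all 31 samples with a random effect of mouse (duplicateCorrelation, which estimated 0.15 for slopes), and on +/+ samples with mouse as a fixed block. The named genes were all 8 members, up to 3 genes per list past the threshold with the smallest p, and the 5 genes most like Doc2a. The members and lists were chosen with earlier results of these data known. The steps were tested on simulated data.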

Additional observations from a re-analysis of the deposited data

Results flagged for a closer look

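The dosage response of Doc2a was marked because its slopes differed between the 4 regions by a test of the difference itself (limma F test, Benjamini-Hochberg adjusted p = 0.0205). That call did not hold in every alternative. The slope was positive in all 4 regions: brain stem 0.78, bulb 0.68, cortex 0.63 and cerebellum 0.19. Doc2a was also lowest in the cerebellum in each genotype. Whether the lower level has a part in the smaller slope was not tested.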

How the results depend on the processing

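The slope of Doc2a across the brain stayed past the threshold under all 20 alternatives (0.44 to 0.59, the lowest on the copies themselves). Its step in dp/+ mice kept its size but not its call with brighter genes only (0.35), quantile normalization within regions (0.36), arrays centred on their medians (0.33), cyclic loess (0.39) and the replicate block (0.35), so the count of members was 0 in each. Mice with the same number in different genotypes are different animals. Their deviations from the genotype mean correlated from -0.38 to 0.17, and those of differently numbered mice from -0.39 to 0.39. With 2 df/+ mice these deviations mirror each other by construction, so the correlations cannot show whether mice of the same number share anything. With the replicate block the df/+ difference of Doc2a was -0.54, not called (count 0), and the bulb slopes called numbered 1. Beside the dp/+ call above, no other call was changed by that block except that of Rph3a in the bulb (adjusted p = 0.0512). Leaving out 1 mouse gave -0.61 to -0.48 for the df/+ difference, 0.28 to 0.42 for the dp/+ difference, and adjusted p from 0.00642 to 1.00 for the difference of Doc2a slopes between regions; it gave counts from 0 to 1 for both brain-wide contrasts, for df/+ in bulb, cortex and brain stem, for dp/+ in bulb and brain stem and for the difference of slopes, and from 1 to 2 for the bulb slopes. The difference of Doc2a slopes also lost its call (count 0) with cyclic loess (adjusted p = 0.0508), array weights (0.48), slopes on the copies themselves (0.0898) and the mouse block dropped (0.0987). Fitting regions one by one gave 1 bulb slope and 0 df/+ calls in bulb and brain stem. Array weights gave 3 brain-wide slopes and 1 dp/+ call in bulb and 1 in cortex, and quantile normalization within regions 1 dp/+ call in bulb. With the next brightest probe set, Unc13a in bulb minus brain stem was -0.11, the reverse of its main sign. Over all genes, brain-wide slopes called numbered 22, but 1616 with array weights and 104 with a trended robust prior, and dp/+ calls numbered 371, but 11 to 2222 over the alternatives. Leaving out the brain stems of +/+ mice 1 and 2 was chosen after seeing the data. The causes of these changes were not tested. With 2 df/+ mice, a regional contrast without 1 of them rests on a lone sample assumed to vary like the others.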

Other observations

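Of the 70 measured genes in the 6 release lists, 62 differed between the regions of +/+ mice (limma F test, Benjamini-Hochberg), beside 58% of all genes. Doc2g, the third Doc2 gene, was at 11.80 ± 0.19 in df/+ and 11.53 ± 0.12 in dp/+ bulbs, against 11.90 ± 0.31 in +/+ bulbs (SD), and its group means in the other 3 regions ran from 7.47 to 7.91. It was listed as a marker of the bulb too. Syt5 had a cerebellar minimum, as Doc2a did: 8.63 ± 0.43 in df/+ and 8.53 ± 0.46 in dp/+ cerebella, against 8.88 ± 0.033 in +/+ cerebella, with 12.53 ± 0.019 in +/+ cortex. Cadps2, a priming factor of dense-core vesicles, was highest in the cerebellum, at 11.03 ± 0.0029 in df/+, 11.10 ± 0.21 in dp/+ and 11.12 ± 0.059 in +/+ mice, and lowest in the bulb, at 7.99 ± 0.21 in df/+, 7.71 ± 0.082 in dp/+ and 7.69 ± 0.32 in +/+ mice.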
